A study of Rattus norvegicus with 6 samples.

Results

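Creatine kinase and adenylate energy buffering were followed through 10 genes: the creatine kinases Ckm, Ckb, Ckmt2 and Ckmt1, the creatine transporter Slc6a8, the creatine synthesis enzymes Gatm and Gamt, the AMP deaminases Ampd1 and Ampd3, and the adenylate kinase Ak1. The genes were given by name, and every non-control probe whose RefSeq accession belonged to one of them was taken. They were 10 of the 15168 named genes on the array and 11 of its 30367 probes, 1 for each gene and 2 for Gatm, and all 11 were well above background on all 6 arrays and were tested. Ventricular myocytes of Sprague-Dawley rats aged 1 to 2 days, labelled male, were depleted of fibroblasts by preplating, kept in medium with bromodeoxyuridine for 36 h, and transfected with 50 nmol/L of an siRNA against the ultraconserved non-coding transcript uc.323 (si-uc.323) or of a scrambled siRNA (si-scramble). Both groups had siRNA in medium without serum for 3 h and a further 21 h without serum before harvest at 24 h. Each group held 3 samples, described as independent experiments, with 1 array each, and the comparison asks which transcripts lie downstream of uc.323 in cardiomyocyte hypertrophy. A single siRNA was used, and these data are not used here to check the knockdown itself. Its sequence defines the treated group and is given without the deoxythymidine overhang of the protocol:
si-uc.323: gguaaguaauuucagcaau

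Heart muscle holds little ATP beside what it uses, and buffers it with phosphocreatine. Creatine kinases move the high-energy phosphate of ATP onto creatine and back, with mitochondrial forms (Ckmt2 in striated muscle, the ubiquitous Ckmt1) charging creatine next to the respiratory chain and cytosolic forms (Ckm in muscle, Ckb in brain, smooth muscle and fetal heart) recharging ADP where ATP is used. Muscle takes up creatine through Slc6a8, and creatine itself is made by Gatm and then Gamt, mainly in kidney and liver. Adenylate kinase turns 2 ADP into ATP and AMP, and AMP deaminase removes the AMP as IMP, so that these enzymes act together when ATP falls. In the developing heart Ckb declines and Ckm and Ckmt2 increase.

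Slide and group were partly confounded: the first slide carried si-scramble replicates 1, 2 and 3 with si-uc.323 replicate 1, and the second carried si-uc.323 replicates 2 and 3. The share of probes well above background was 71.8% to 73.9% on slide 1 and 78.2% and 86.5% on slide 2. Of 21994 tested probes, 1295 (5.89%) passed an adjusted p of 0.05 (limma with Benjamini-Hochberg adjustment, as for every adjusted p given here), 529 lower (2.41%) and 766 higher (3.48%). Higher probes were thus 59.2% of those that passed, against 38.2% after a shift to the median of each array, under which the median over all probes went from a log2 fold change of 0.06 to -0.08, and 47.2% to 48.5% with normexp, quantile or cyclic loess scaling or the series table. Leaving out 1 si-scramble array left at most 19 passing probes, and leaving out si-uc.323 replicate 2 or 3 gave 3247 or 512. No probe of the 10 genes changed sign under any of 20 alternative settings that gave it a value (19 and 18 for the Gatm probes). Much of this was fixed in advance. The background filters, the trended and robust prior, the replicate block and, for genes with 1 probe, the gene-level summaries leave the fold change unchanged. Slide as a block repeats slide 1 alone, and leaving out 1 array cannot flip a probe whose groups do not overlap. Of the cardiomyocyte markers 9 of 10 were tested and none passed. Tnnt2 had a log2 signal of 6.12 to 6.54 and Myh6 of 4.95 to 5.30 over the 75th percentile of each array. In 4 of the 9 the groups did not overlap, beside 35.4% of all tested probes. By log2 fold change Ryr2 (-0.46, second probe -0.03), Tnni3 (-0.34) and Pln (-0.29) were lower and Myh7 (0.29) was higher.

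Among the 11 probes 2 fell and none rose. Ckm, the cytosolic muscle creatine kinase, fell 1.85-fold and Ampd1, the AMP deaminase of skeletal muscle, fell 1.99-fold in si-uc.323. Over all tested probes 5.89% passed in either direction, 2.41% lower and 3.48% higher. At an unadjusted p under 0.05 the count was 7 of 11, beside 28.3% of all tested probes. Altogether 9 of the 11 probes had negative log2 fold changes, beside 9593 of all 21994 tested probes. The exceptions were both Gatm probes, and the median of the 11 was -0.40, beside 0.06 over all tested probes. In those 9 probes all si-uc.323 values lay below all si-scramble values, and 1 Gatm probe separated in the other direction. Of all tested probes 35.4% separated in this way, 15.8% lower and 19.7% higher. Without si-scramble replicate 1, 2 or 3 none of the 11 probes passed. Without si-uc.323 replicate 2 the count was 6, of which 4 were lower and 2 higher (both Gatm probes), beside 3247 of all 21994 tested probes.

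**Figure D1:**
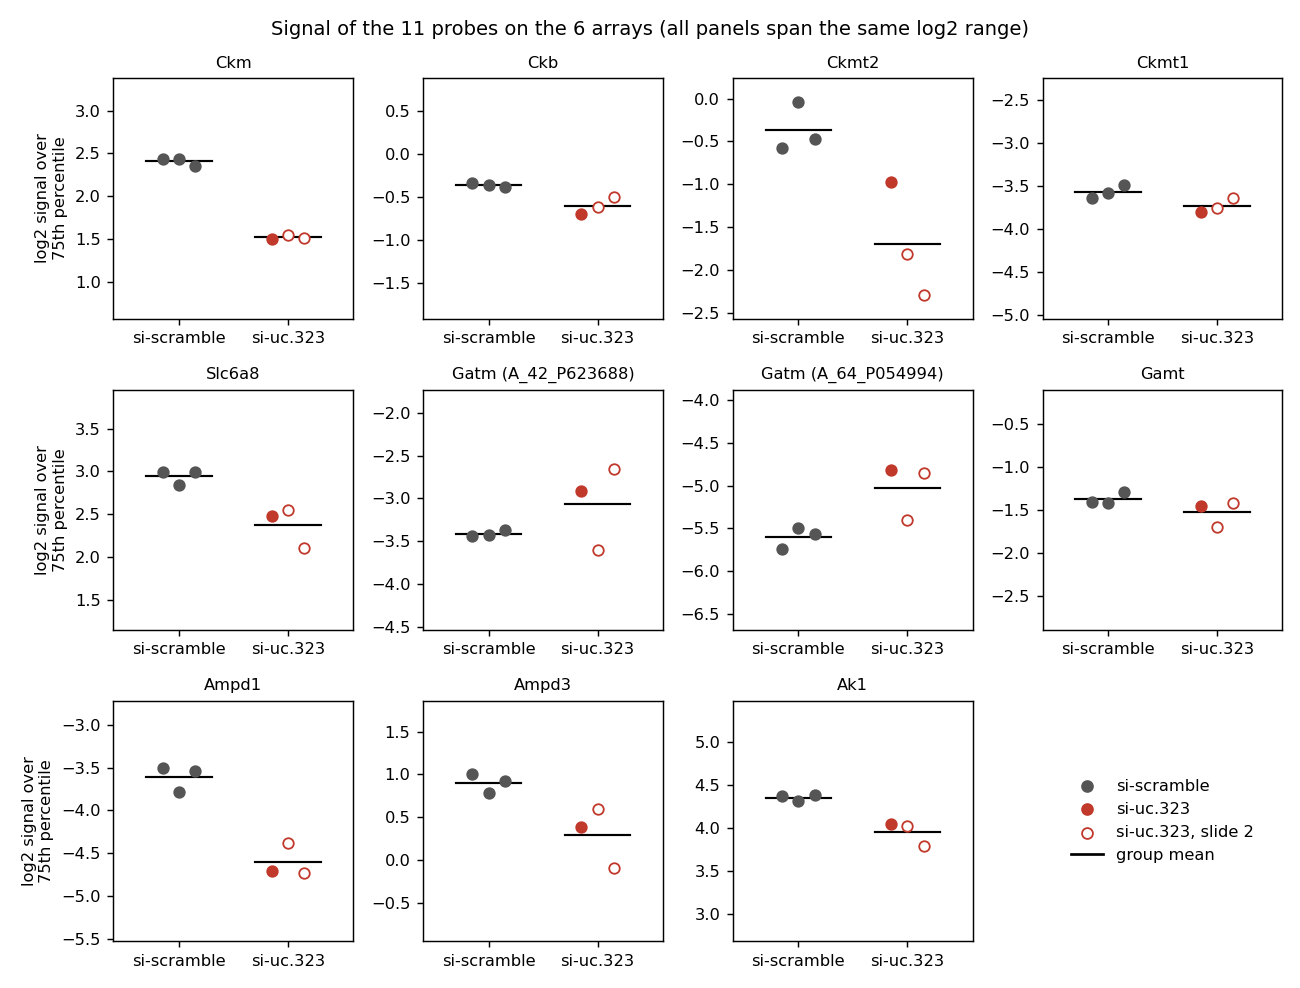
Log2 signal of each of the 11 probes relative to the 75th percentile of its array, by group, with 3 arrays per group and the group mean as a line; open symbols are the 2 si-uc.323 arrays of slide 2. The Ckm values form 2 tight groups, from 2.36 to 2.44 in si-scramble and from 1.51 to 1.55 in si-uc.323, while those of Ckmt2 are spread from -0.97 to -2.29 in si-uc.323.

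Promoters of 8 of the 10 genes were found in the RefSeq promoter table of GRCr8, each 250 bases before to 50 after the start; Ampd3 and Ak1 had no entry. The promoters of Ckm and Ampd1, which fell, and of Ckb, whose change was smaller, are shown 5′ to 3′ on the strand of the gene. Capitals mark matches, on either strand, to the E-box CANNTG, the M-CAT core CATTCC, the nuclear receptor half-site AGGTCA, the TATA box TATAAA, the MEF2 site and the CArG box.
Ckm, chr1:88189211-88189510, plus strand: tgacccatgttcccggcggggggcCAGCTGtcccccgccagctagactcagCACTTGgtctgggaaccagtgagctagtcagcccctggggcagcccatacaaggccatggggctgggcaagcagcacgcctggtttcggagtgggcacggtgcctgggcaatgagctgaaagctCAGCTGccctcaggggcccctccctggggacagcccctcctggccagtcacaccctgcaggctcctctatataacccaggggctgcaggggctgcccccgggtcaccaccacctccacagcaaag
Ampd1, chr2:193287082-193287381, plus strand: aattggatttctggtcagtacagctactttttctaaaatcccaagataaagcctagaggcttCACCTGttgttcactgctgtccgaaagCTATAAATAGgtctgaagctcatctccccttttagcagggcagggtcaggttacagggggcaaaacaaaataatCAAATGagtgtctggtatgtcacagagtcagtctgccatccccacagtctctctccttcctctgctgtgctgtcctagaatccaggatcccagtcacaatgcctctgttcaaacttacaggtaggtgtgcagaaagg
Ckb, chr6:136553415-136553714, minus strand: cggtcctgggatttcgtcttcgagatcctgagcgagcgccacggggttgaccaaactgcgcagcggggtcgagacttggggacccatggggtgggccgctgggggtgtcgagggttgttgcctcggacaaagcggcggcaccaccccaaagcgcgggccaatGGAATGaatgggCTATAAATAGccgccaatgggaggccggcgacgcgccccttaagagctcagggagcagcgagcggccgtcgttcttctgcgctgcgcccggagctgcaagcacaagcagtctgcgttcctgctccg

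The Ckm window holds 3 E-boxes, at -226, -199 and -75 from the start, and the Ampd1 window holds 2, at -188 and -87. An E-box was found in 5 of the 8 windows (Ckm, Ckmt2, Ampd1, Gatm and Slc6a8) and in 72.1% of 33469 promoters of the same length. The Ampd1 and Ckb windows share the letters CTATAAATAG, which match the MEF2 site and contain the TATA box, at -161 in Ampd1 and -76 in Ckb. A MEF2 site was found in 3.29% of all promoters and a TATA box in 14.2%. The M-CAT core matched only in Ckb (14.2% of all promoters), and neither the half-site AGGTCA (16.2%) nor the CArG box (1.64%) matched in any of the 8 windows. These matches describe letters in the windows, and their part in the changes was not tested.

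Ckm carried the most uniform difference of the creatine kinases. Its log2 signal over the 75th percentile of the array was 2.44, 2.43 and 2.36 in si-scramble replicates 1, 2 and 3 and 1.51, 1.55 and 1.52 in si-uc.323 replicates 1, 2 and 3. The gap between the groups was far wider than the range within either. On the log2 scale Ckm fell by 0.89 ± 0.10 (SE, 3 arrays against 3, adjusted p = 0.0176), which placed it 49th of all tested probes by p. Here and below ± gives the SE from limma, whose variance is moderated over all tested probes. Against the si-scramble mean, the array on slide 1 read -0.90 and those on slide 2 read -0.86 and -0.89, so each si-uc.323 array differed by a like amount.

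Ckm and Ampd1 each passed in 14 of 20 alternative settings. Under the others few or no probes of the whole array passed. They numbered 0, 19 and 0 without si-scramble replicate 1, 2 and 3. No probe passed without the background filter or on slide 1 alone, and 9 passed with slide as a block. The call of both was lost without si-scramble replicate 1, 2 or 3 (Ckm adjusted p = 0.0971, 0.0836 and 0.124; Ampd1 0.107, 0.0831 and 0.124), without the background filter (0.0904 and 0.0954) and on slide 1 alone (0.0639 for each; log2 fold change -0.90 and -1.10) or with slide as a block (0.143 and 0.159).

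Ckmt2, the mitochondrial creatine kinase of striated muscle, had the largest difference of the 11 probes but also the widest spread, and did not pass. Its log2 signals were -0.58, -0.04 and -0.48 in si-scramble and -0.97, -1.81 and -2.29 in si-uc.323. No values overlapped, but si-uc.323 replicate 1 lay nearer to the si-scramble values than to si-uc.323 replicate 3. Its log2 fold change was -1.33 ± 0.33 (SE; adjusted p = 0.0587). It was -0.60 on slide 1, against -1.45 and -1.92 on the slide 2 arrays, so its size moved with the slide or with the culture, which cannot be told apart here. Without si-uc.323 replicate 1 it read -1.69 and passed (adjusted p = 0.0291), and it also passed with normexp background correction (-1.21, adjusted p = 0.0345), a median shift (-1.46, 0.0488) and cyclic loess normalization (-1.36, 0.0461).

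The isoforms of other tissues differed less. Ckb, the brain-type cytosolic kinase, had log2 signals of -0.34, -0.37 and -0.38 in si-scramble and -0.70, -0.62 and -0.51 in si-uc.323. All si-uc.323 values were lower, and the log2 fold change was -0.25 ± 0.11 (SE; 95% interval -0.50 to 0.01; adjusted p = 0.183). Among the 20 alternatives Ckb passed only with array weights. Ckmt1, the ubiquitous mitochondrial kinase, was dim, with log2 signals of -3.64, -3.59 and -3.48 in si-scramble and -3.80, -3.76 and -3.64 in si-uc.323. The groups were adjacent, and the log2 fold change was -0.16 ± 0.11 (SE; 95% interval -0.42 to 0.09; adjusted p = 0.365). A p above the threshold leaves differences of these sizes undecided.

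The shift between the cytosolic isoforms was compared within each array, where a shift of the whole array cancels. The difference log2(Ckm) minus log2(Ckb) was 2.78, 2.80 and 2.74 on the si-scramble arrays and 2.21, 2.17 and 2.02 on the si-uc.323 arrays. It was lower on all 3 si-uc.323 arrays, and the change of the difference was -0.64 log2 units (SD 0.033 and 0.097 within si-scramble and si-uc.323, n = 3 and 3). The exact 2-sided permutation test gave p = 0.10, the smallest p that 3 against 3 arrays allow. On slide 1 alone the difference was -0.57 (exact p = 0.25, again the smallest possible). The level of one probe says nothing about the level of another, so only the change of this difference is interpretable.

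**Figure D2:**
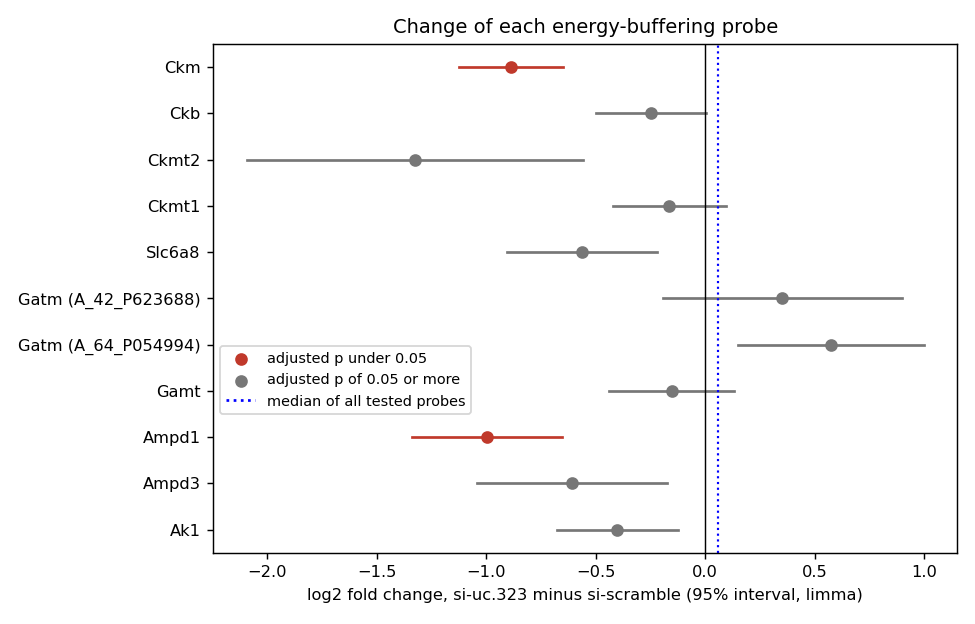
Log2 fold change of each probe, si-uc.323 minus si-scramble, with its 95% interval from limma; red marks an adjusted p under 0.05 and the dotted line the median of all tested probes. Ckm and Ampd1 are red at -0.89 and -0.996, Ckmt2 lies furthest from 0 with the widest interval, and both Gatm probes lie above 0.

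Of the genes of creatine supply, the transporter Slc6a8 had log2 signals of 3.00, 2.84 and 2.99 in si-scramble and 2.48, 2.56 and 2.11 in si-uc.323. All si-uc.323 values were lower, most of all that of replicate 3. With a log2 fold change of -0.56 ± 0.15 (SE), Slc6a8 did not pass (adjusted p = 0.066). This probe is printed as 10 spots on each array, whose log2 signals had SDs of 0.03 to 0.05 within an array (the SD among si-uc.323 arrays was 0.24). Slc6a8 passed without si-uc.323 replicate 2 (-0.65, adjusted p = 0.0421) and with normexp (-0.58, 0.035), cyclic loess (-0.51, 0.0449), a trended and robust prior (-0.56, 0.0334) and array weights (-0.52, 0.00894).

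Gatm, which makes the creatine precursor guanidinoacetate, was the only one of the 10 genes with positive log2 fold changes, and its probes were among the dimmer ones. The brighter probe, A_42_P623688, read -3.43, -3.43 and -3.37 in si-scramble and -2.92, -3.61 and -2.66 in si-uc.323. Replicate 2 of si-uc.323 lay below every si-scramble array and the other two above, and the log2 fold change was 0.35 ± 0.23 (adjusted p = 0.359). The dimmer probe, A_64_P054994, read -5.74, -5.49 and -5.57 in si-scramble and -4.82, -5.41 and -4.85 in si-uc.323, with no overlap and a log2 fold change of 0.57 ± 0.18 (adjusted p = 0.0968). Its processed intensity was 22.5 to 30.7 in si-scramble and 40.5 to 61.6 in si-uc.323, and with normexp its log2 fold change was 0.04 (adjusted p = 0.885). On both probes si-uc.323 replicate 2 was the lowest of its group, and without it both passed (0.62, adjusted p = 0.0329, and 0.76, adjusted p = 0.0263), as they did with array weights.

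Gamt, which methylates guanidinoacetate to creatine, had log2 signals of -1.41, -1.41 and -1.30 in si-scramble and -1.45, -1.70 and -1.42 in si-uc.323. The groups did not overlap but were nearly adjacent. The log2 fold change was -0.15 ± 0.12 (SE; 95% interval -0.44 to 0.13; adjusted p = 0.444), and Gamt passed under none of the alternative settings.

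Ampd1, the other gene that fell, was measured on a dim probe. Its log2 signals were -3.51, -3.78 and -3.54 in si-scramble and -4.71, -4.38 and -4.73 in si-uc.323. The groups were well separated, with si-uc.323 replicate 2 the highest of its group. The log2 fold change was -0.996 ± 0.145 (SE; adjusted p = 0.0222), and the processed intensity was 100.2 to 105.6 in si-scramble and 46.2 to 82.6 in si-uc.323. With normexp, whose added offset pulls dim probes towards 0, it was -0.68 and still passed (adjusted p = 0.0235), and Ckm was at -0.90, so the order of their sizes depends on the background correction.

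Ampd3, the AMP deaminase first known from red cells, had log2 signals of 1.01, 0.79 and 0.92 in si-scramble and 0.39, 0.59 and -0.09 in si-uc.323. All si-uc.323 values were lower and replicate 3 was lowest by a wide margin. Its log2 fold change of -0.61 ± 0.18 (SE) did not pass (adjusted p = 0.0911). Without si-uc.323 replicate 3 it was -0.42 (adjusted p = 0.113), and without replicate 2 it was -0.76 and passed (0.0425). Its 10 spots had SDs of 0.04 to 0.06 in log2 signal within an array.

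Ak1, the cytosolic adenylate kinase of muscle, had log2 signals of 4.37, 4.32 and 4.38 in si-scramble and 4.05, 4.03 and 3.79 in si-uc.323. All si-uc.323 arrays were lower, with replicate 3 lowest. Its log2 fold change was -0.40 ± 0.12 (SE; adjusted p = 0.0838), and Ak1 passed with normexp (-0.48, adjusted p = 0.0387), a trended and robust prior (-0.40, 0.0487) and array weights (-0.34, 0.0176).

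**Figure D3:**
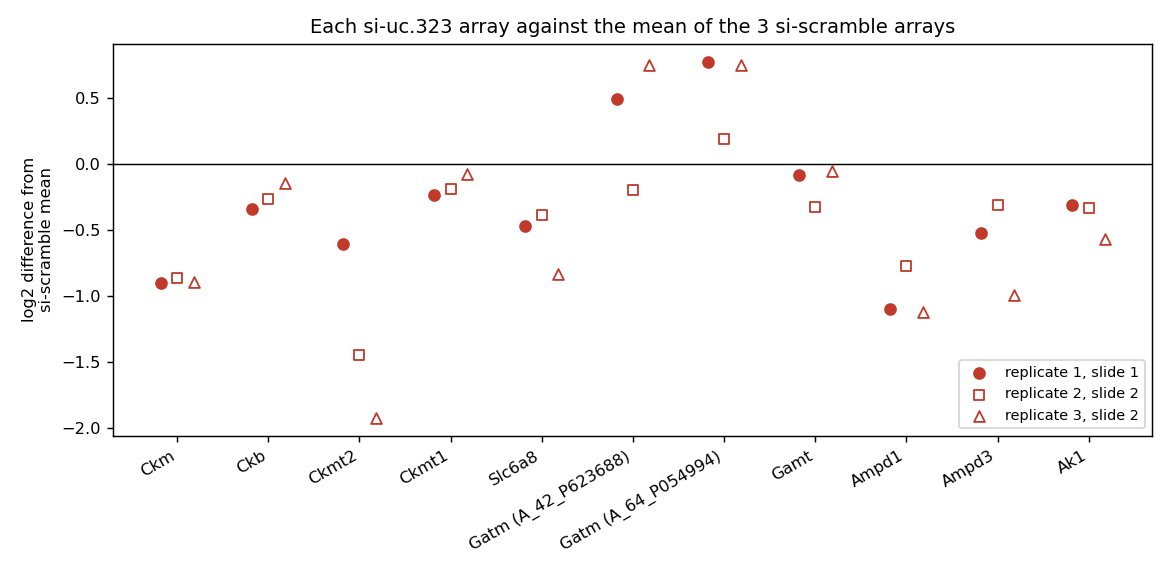
Log2 difference of each si-uc.323 array from the mean of the 3 si-scramble arrays, per probe; filled circles are replicate 1 on slide 1, open squares and triangles replicates 2 and 3 on slide 2. The 3 Ckm symbols coincide near -0.9. Replicate 3 is lowest for Slc6a8, Ampd3, Ak1, Ckmt2 and, narrowly, Ampd1, and replicate 2 is lowest for Gamt and both Gatm probes.

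The order of the si-uc.323 arrays differed between probes. Replicate 3 was lowest for Slc6a8, Ampd3, Ak1, Ckmt2 and, narrowly, Ampd1. Replicate 2 was lowest for Gamt and both Gatm probes, and replicate 1 for Ckm, Ckb and Ckmt1. Over the 6 arrays the log2 signal of Slc6a8 correlated with that of Ak1 at Pearson r = 0.990 and with that of Ampd3 at 0.987, and Ckm with Ampd1 at 0.961. These coefficients describe 6 arrays that fall into the 2 groups and share their scaling, so a wide separation of the groups alone raises their size. Gamt, whose groups were nearly adjacent, correlated with Ckm at 0.586. Among 11570 other named genes those closest to Ckm included Kif16b (r = 0.997; log2 fold change -0.47, adjusted p = 0.0436), Ptp4a3 (r = 0.996; -0.32, 0.0927), Cox8b (r = 0.996; -0.64, 0.0258) and Them5 (r = 0.996; -1.29, 0.00878). Kif16b encodes a kinesin, Ptp4a3 a phosphatase, Them5 a mitochondrial acyl-CoA thioesterase, and Cox8b a muscle-type subunit of cytochrome oxidase. The closest to Ckb were Or6e1 (r = 0.996; -0.43, adjusted p = 0.0685), Htr5b (r = 0.992; -0.52, 0.0589) and Spmap2l (r = 0.992; -0.46, 0.064), none of which passed.

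Genes around these enzymes were taken from 5 lists of 74 genes, of which 64 had a probe matched by accession and 60 were tested on their brightest probe. In all, 3 fell and none rose, beside 6.3% of 11580 named genes that passed in either direction, 2.99% lower and 3.31% higher. Their median log2 fold change was 0.07, beside 0.06 over all tested probes. Without any single si-scramble array none of the 60 passed, beside at most 19 of all 21994 tested probes. Without si-uc.323 replicate 2 or 3 the count was 16 (7 lower, 9 higher) or 1, beside 3247 or 512 of all tested probes. Genes also passed in the higher direction under other settings, 2 of 7 with quantile or cyclic loess normalization or in the series table (Nme1 and Nme7, nucleoside diphosphate kinases) and 16 of 28 with array weights. Of all tested probes 1828, 2162 and 1827 passed with quantile, cyclic loess and the series table, and 6542 (3635 higher) with array weights. Among the other adenylate kinases and the nucleoside diphosphate kinases, which pass phosphate between nucleotides, 2 of 14 fell. Nme4, a mitochondrial nucleoside diphosphate kinase, read 1.02, 0.98 and 1.06 in si-scramble and 0.50, 0.42 and 0.36 in si-uc.323 (log2 fold change -0.60 ± 0.10, adjusted p = 0.03; its second probe read -0.20). Ak7, an adenylate kinase of ciliated cells, had a dim probe and a log2 fold change of -0.59 ± 0.10 (adjusted p = 0.0302), which did not pass with normexp (-0.43, 0.0706). The list median was 0.10, and 10 of 14 genes had positive values, beside 12401 of all 21994 tested probes.

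Of 11 tested genes of AMP-activated protein kinase, the sensor of cellular AMP, 1 fell and none rose (median -0.03). This was Prkag3, the gamma subunit typical of skeletal muscle, at -3.06, -2.89 and -2.99 in si-scramble and -3.93, -3.70 and -4.01 in si-uc.323. Its log2 fold change was -0.90 ± 0.13 (adjusted p = 0.0206), with a second probe at -0.42. None of Prkag3, Nme4 and Ak7 passed when any si-scramble array was left out, without the background filter, on slide 1 alone or with slide as a block. At most 19 probes of the whole array passed in any of these settings.

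None of the 12 tested genes of the purine nucleotide cycle and AMP breakdown passed (median 0.13). Of these 10 had positive values, beside 12401 of all 21994 tested probes. The lowest adjusted p was that of Ada, adenosine deaminase (0.45 ± 0.14, adjusted p = 0.0929). None of the 10 tested adenine nucleotide carriers and outer membrane pores passed (median -0.13), with Slc25a25, an ATP-magnesium carrier, at 0.43 ± 0.13 (adjusted p = 0.0881). None of 13 genes that supply arginine, glycine or methyl groups for creatine synthesis passed (median -0.08), with Mat1a, a methionine adenosyltransferase, at -0.61 ± 0.14 (adjusted p = 0.052).

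**Figure D4:**
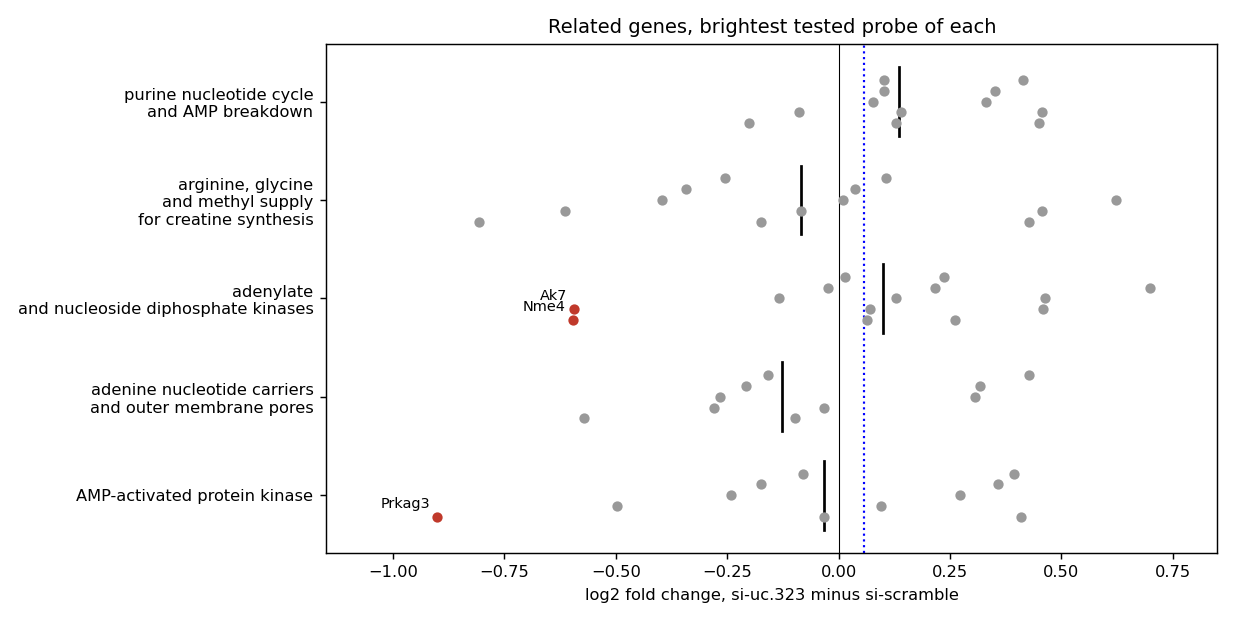
Log2 fold change of the 60 related genes, brightest tested probe of each, in 5 lists; black bars are list medians, the dotted line is the median of all tested probes, and red marks an adjusted p under 0.05. The 3 red points, Prkag3, Nme4 and Ak7, lie between -0.90 and -0.59, and the list medians lie between -0.13 and 0.13.

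Markers of other cell types were set beside these values, since Ckb is also a smooth muscle gene, Ampd3 a red cell gene and Ckm and Ampd1 skeletal muscle genes. In bulk RNA, fewer cells of a type and less RNA per cell cannot be told apart. Summed marker signal, in multiples of the 75th percentile, was 209.7 to 219.4 in si-scramble and 192.3 to 219.2 in si-uc.323 for cardiomyocytes (0 of 9 passed). It was 8.73 to 8.97 and 10.8 to 12.9 for smooth muscle and pericytes (0 of 5), 11.1 to 12.5 and 5.63 to 8.65 for endothelium (0 of 6), 3.78 to 3.88 and 2.97 to 3.21 for leukocytes (0 of 4; Cd68 -0.41, Adgre1 0.42), and 125.1 to 135.7 and 127.4 to 159.3 for fibroblasts, where 1 of 9, Postn, rose. The sums of these 2 lists mostly follow their brightest probes, Kdr and Cd68. In si-scramble Kdr had log2 signals of 3.28 to 3.52, and the next brightest endothelial probe, Pecam1, at most 0.23. Cd68 had 1.65 to 1.70, and the next brightest leukocyte probe, Ptprc, at most -1.20. The endothelial markers did not share a direction, with Kdr at -0.76 and Flt1 and Tek at 0.33 and 0.46. Positive values were found in 3 of 6 endothelial and 3 of 4 leukocyte genes (list medians 0.06 and 0.10). All 5 smooth muscle and pericyte genes had positive values (list median 0.42), beside 12401 of all 21994 tested probes. In 3 of them the groups did not overlap, beside 35.4% of all tested probes (19.7% higher). Tagln was at 0.63 (adjusted p = 0.0556) and Myh11 at 0.56 (second probe 1.25). For red cells the summed signal was 3.32 to 3.88 and 2.83 to 3.71 (1 of 3 fell, Hbb), and for neural and glial cells 1.14 to 1.21 and 1.14 to 1.33 (0 of 4). For skeletal muscle it was 0.313 to 0.339 and 0.354 to 0.439, with Actn3 lower (-0.58, adjusted p = 0.0404), Myh1 higher (0.69, 0.0315) and 3 of 5 not passing. Over all named genes 6.3% passed in either direction (2.99% lower, 3.31% higher). The markers Thy1, Cd3e, Epb42, Myh4 and Gfap were too dim to be tested. The part of other cell types in the energy-buffering values was not tested.

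**Figure D5:**
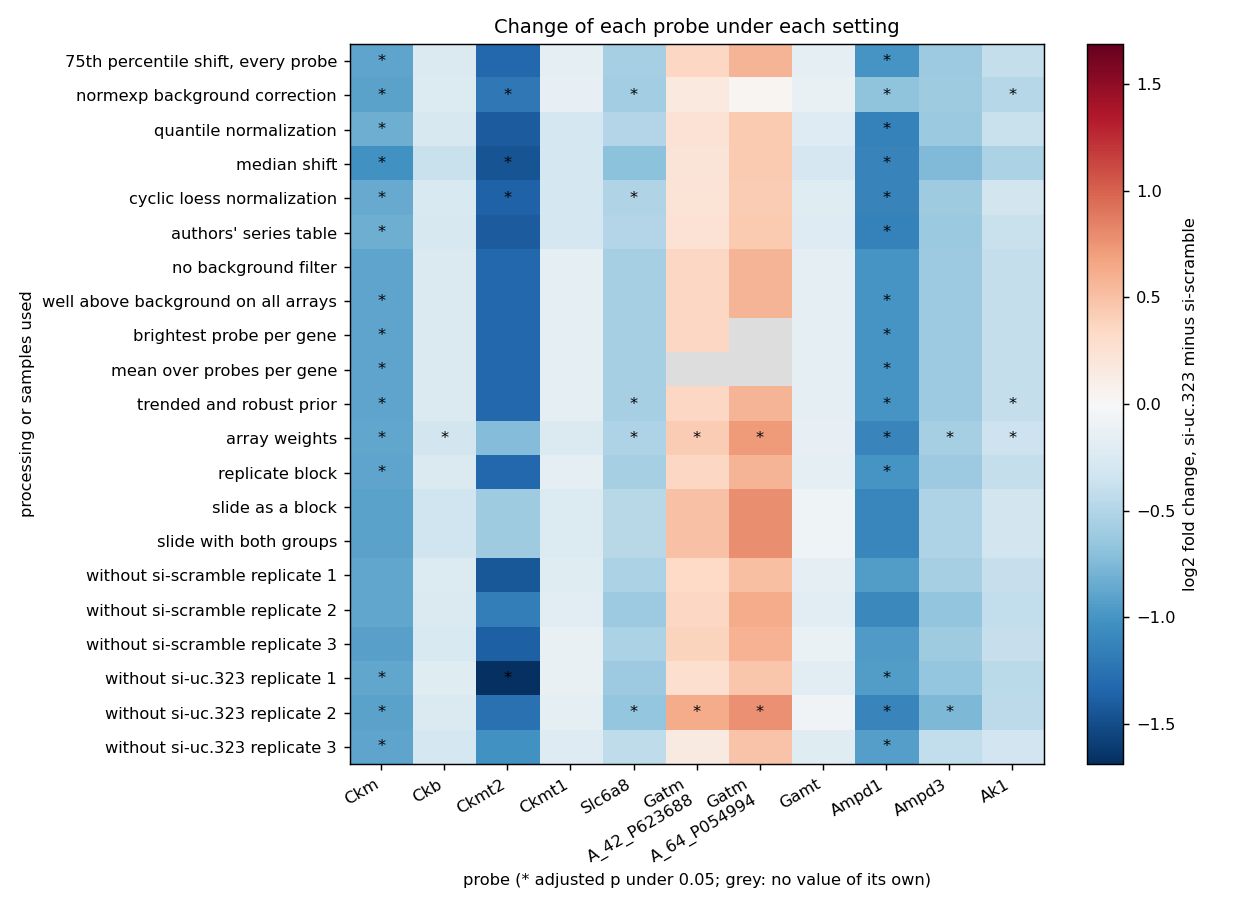
Log2 fold change of each probe (colour) under each processing setting or set of arrays (rows), with an asterisk at an adjusted p under 0.05; grey cells have no value of their own. The Ckm and Ampd1 columns are negative in every row and pass in the reported setting and in 14 of the 20 others, while asterisks for other genes appear in scattered rows. Rows that change only the filter, the prior or the replicate block repeat the reported fold change.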

How the data were processed

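Each sample's total RNA was amplified, carried the single dye Cy3 and went onto 1 Agilent array, per the labels' protocols. The deposited scanner files, made with Agilent Feature Extraction (version 11.0.1.1, as the submitters' processing notes state), give each spot's intensity, background-subtracted and detrended within its array, per the file headers. The deposited series table holds log2 values with the same median, 6.52 over the non-control probes, on nearly every array. Its normalization is not given in the sources used here, and it served as an alternative only. It gave nearly the result of quantile normalization (1827 against 1828 passing probes), so these alternatives are not independent of each other.

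Spots with outlier flags, 322 to 594 of 42877 per array, were left out, no spot was saturated, log2 intensities were shifted by each array's 75th percentile (1182 to 1775 intensity units), and replicate spots averaged by probe. A test was made of probes well above background (in at least 0.5 of their spots) on all 3 arrays of a group, and 44 probes lacking a value were dropped. Symbols came from a RefSeq table of GRCr8 by accession: 18005 of 30367 probes matched 1 gene, 12362 none. Groups came from the titles and slides from scan identifiers in the headers. Every probe was fitted with limma 3.58.1 in R 4.3.3 without covariates, and p-values were adjusted over all 21994 probes; the fit was tested on simulated data. Litters are not stated, and a p-value here measures only how these samples vary, which may be technical. Arrays give no read depth, and their number, 3 per group, limits the precision.

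The members and lists were chosen with earlier results of these data known. Every member is named, with every probe. Of each related list the genes that passed are named, or the gene with the lowest adjusted p, and for likeness the 5 genes closest to Ckm, 1 of which is not reported here, and the 3 closest to Ckb. The alternatives were normexp (on median spot intensity, offset 50), quantile, median and cyclic loess scaling, the series table, other background filters, gene-level summaries, other variance models, blocks for replicate number or slide, and omission of each array in turn. Protein sequences were not used here. Figures used matplotlib 3.10.9 in Python 3.11.15.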

Additional observations from a re-analysis of the deposited data

How the results depend on the processing

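The energy-buffering probes kept their sign under the alternatives that gave them a value (20, but 19 and 18 for the Gatm probes). Many of these alternatives could not change the sign, as given in the Results. The reported counts were 1295 probes, 2 energy-buffering probes and 3 related genes past the threshold. They became 2162, 4 and 7 with cyclic loess, 2151, 4 and 7 with a trended and robust prior, and 6542, 8 and 28 (12 lower, 16 higher) with array weights. Normexp gave 5 energy-buffering probes, beside 1289 of all tested probes. The related genes numbered 7 with quantile normalization (1828 of all tested probes) and in the series table (1827). They numbered 5 with the filter over all arrays (1419 of 20836 probes). With slide as a block 9, 0 and 0 passed (3433, 3 and 8 at an unadjusted p under 0.05), and limma called 0, 0 and 0 on slide 1 alone (6577, 8 and 28 at an unadjusted p under 0.05) and without the background filter (5676, 7 and 18). Leaving out arrays gave 0 to 3247 probes, 0 to 6 energy-buffering probes and 0 to 16 related genes. Without si-scramble replicates 1, 2 and 3 the probes numbered 0, 19 and 0 (4309, 4497 and 3804 at an unadjusted p under 0.05), and energy-buffering probes 0 each time (6, 7 and 7 at an unadjusted p under 0.05), as were related genes (13, 14 and 15). Without si-uc.323 replicate 2 the counts were 3247, 6 and 16, and without replicate 3 they were 512, 2 and 1. The mean over both Gatm probes had a log2 fold change of 0.46 (adjusted p = 0.187). These fits have fewer arrays; the cause of the changes beyond that was not tested. The replicate block gave 804 probes and 1 related gene, and 2 energy-buffering probes passed; Nme4 and Ak7 did not (adjusted p = 0.0587 and 0.0579). Same-numbered arrays deviated together in replicates 1 and 2 (correlation 0.20 and 0.39) but not in replicate 3 (-0.11), and the numbers were not taken to pair the samples. This check cannot exclude pairing, since the deviations of the si-uc.323 arrays also carry the difference between slides. The change of Ckm relative to Ckb was -0.55 to -0.68 under the alternatives tried. It had 1 probe per gene, so no other probe pair could be tried, and the slide block repeats the value of slide 1. Normexp moved the dim Ampd1 from -0.996 to -0.68 and the dimmer Gatm probe from 0.57 to 0.04.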
